A study of Mus musculus with 24 samples.

Results

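The subject is 46 interferon-induced genes and sensors of foreign RNA and DNA, matched to probe sets by gene symbol. Of these, 40 were measured here among 19938 named genes. The list was chosen with earlier results of these data known. Each gene was represented by the probe set that carried its symbol alone and had the highest mean over all arrays. Isg15, Igtp, Irgm2, Gbp2 and Gbp6 lie on probe sets that carry several symbols, and Ifi44 had no probe set of its own symbol alone, so these 6 were left out. The 24 livers came from male C57BL6 mice, 10 weeks old at the start by the sample labels and 12 by the study's methods, and fed for 10 weeks, with 6 mice in each of 4 groups. These were wild-type (WT) mice on chow, Ogg1-/- mice on chow, WT mice on a high-fat diet (HFD) and Ogg1-/- mice on the HFD. Ogg1 encodes the DNA glycosylase that removes oxidised guanine from DNA, and the Ogg1-/- mice lack it in the whole body, so that no effect can be assigned to one cell type. Each liver gave 1 Mouse Gene ST array and 1 log2 value per probe set, so that a difference of 1 is a 2-fold change in signal. The question that the design puts to these genes is whether their level depended on OGG1, on the diet, or on both.

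The interferon response begins when sensors such as RIG-I (Ddx58), MDA5 (Ifih1) and TLR3 meet viral or misplaced nucleic acid and signal, for the RIG-I-like receptors through the mitochondrial adaptor MAVS, to the genes of the type I interferons. Interferon binds IFNAR1 and IFNAR2, and a complex that holds STAT2 and IRF9 switches on the induced genes at the interferon-stimulated response element. The gamma-activated sequence is the element known from the response to interferon gamma. Hepatocytes, Kupffer cells and endothelial cells of the liver all respond to interferon, and uninfected liver has a resting level of these transcripts.

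The targeted gene and the tissue were looked at before the members. The Ogg1 probe set ran from 6.26 to 6.55 in WT and from 5.85 to 6.0 in Ogg1-/- livers on chow, and from 6.34 to 6.57 and from 5.70 to 6.03 on the HFD, without overlap. No source used here places its probes inside or outside the deletion. The mean level of 8 hepatocyte markers lay between 13.2 and 13.6 in each of the 24 livers. One Ogg1-/- liver on chow, replicate 1, and one on the HFD, replicate 1, stood apart from their groups in many genes, as did replicate 3 of the WT HFD group. Where leaving one of these livers out moved a count most, that count is also given without it. Shares over all probe sets come from fits of all 24 livers. They were not computed with a liver left out, so such counts have no matching share.

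The promoters below were chosen after the values were seen, because they hold the response element letters in members that moved much or that moved the other way. RefSeq promoter windows of GRCm38.p6, from 250 bases before to 50 after a gene's start, were found for 31 of the 40 measured members. Each is written 5′ to 3′ on the strand of its gene, and capitals mark matches to the response element core GAAANNGAA on either strand, where neighbouring matches can overlap. They lie at chr19:34583279-34583578 (plus strand) for Ifit3, chr19:34640639-34640938 (plus) for Ifit1, chr11:48871371-48871670 (minus) for Irgm1, chr4:40239776-40240075 (minus) for Ddx58, chr12:26456403-26456702 (minus) for Rsad2 and chr8:71537423-71537722 (minus) for Bst2.
Ifit3: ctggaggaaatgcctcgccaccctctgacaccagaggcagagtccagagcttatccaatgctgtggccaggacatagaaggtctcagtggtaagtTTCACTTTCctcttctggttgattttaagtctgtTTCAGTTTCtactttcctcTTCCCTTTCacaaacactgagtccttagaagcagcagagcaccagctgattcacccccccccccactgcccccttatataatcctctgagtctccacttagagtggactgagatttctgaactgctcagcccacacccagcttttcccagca
Ifit1: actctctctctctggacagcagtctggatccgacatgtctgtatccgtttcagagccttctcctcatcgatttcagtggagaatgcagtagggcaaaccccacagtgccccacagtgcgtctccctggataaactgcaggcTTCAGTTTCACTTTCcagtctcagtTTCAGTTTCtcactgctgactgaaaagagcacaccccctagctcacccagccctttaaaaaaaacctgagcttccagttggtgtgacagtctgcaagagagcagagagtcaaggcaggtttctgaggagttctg
Irgm1: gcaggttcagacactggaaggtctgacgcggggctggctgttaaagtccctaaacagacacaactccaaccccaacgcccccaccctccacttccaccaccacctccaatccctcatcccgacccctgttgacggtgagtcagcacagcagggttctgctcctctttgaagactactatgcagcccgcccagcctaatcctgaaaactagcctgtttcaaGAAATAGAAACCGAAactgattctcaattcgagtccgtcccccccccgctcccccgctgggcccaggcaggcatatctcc
Ddx58: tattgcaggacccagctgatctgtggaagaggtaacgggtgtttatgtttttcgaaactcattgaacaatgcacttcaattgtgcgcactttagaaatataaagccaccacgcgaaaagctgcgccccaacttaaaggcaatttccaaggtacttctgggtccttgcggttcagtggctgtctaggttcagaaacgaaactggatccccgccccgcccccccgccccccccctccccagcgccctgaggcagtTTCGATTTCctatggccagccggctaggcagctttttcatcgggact
Rsad2: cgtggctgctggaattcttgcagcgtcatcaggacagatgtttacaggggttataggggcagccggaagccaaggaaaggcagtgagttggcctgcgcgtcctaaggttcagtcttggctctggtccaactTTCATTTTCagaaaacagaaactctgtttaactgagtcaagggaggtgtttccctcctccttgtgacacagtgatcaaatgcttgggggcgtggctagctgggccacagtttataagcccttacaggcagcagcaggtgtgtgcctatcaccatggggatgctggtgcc
Bst2: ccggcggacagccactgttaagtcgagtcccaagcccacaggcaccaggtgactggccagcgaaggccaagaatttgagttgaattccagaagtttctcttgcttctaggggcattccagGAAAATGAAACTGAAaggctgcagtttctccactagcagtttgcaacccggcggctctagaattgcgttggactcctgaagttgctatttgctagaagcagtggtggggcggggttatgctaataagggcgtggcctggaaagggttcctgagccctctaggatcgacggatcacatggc
The Ifit3 window holds 3 matches to the core, Ifit1 holds 3 and Irgm1 holds 2. Bst2, the one member shown whose level was higher in Ogg1-/- livers on the HFD, also holds 2. The core was found in 15 of the 31 members with a window (48.4%), against 9.76% of all 27025 genes of the table, and 2 or more matches in 1 window in 9 of 31, against 0.736% of all genes. A match describes the letters in this window and is not evidence of a bound site.

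On the HFD, 22 of the 40 measured members were lower in Ogg1-/- than in WT livers at an adjusted p under 0.05, and 2 were higher. The 2 were Mavs, the adaptor of RIG-I and MDA5, and Bst2, the membrane protein tetherin. Of the 22, 11 also had a fold of at least 1.5, which is what "called" means below: Ifit3, Iigp1, Ddx58, Ifit1, Irgm1, Trim30a, Rsad2, Mx2, Ifih1, Herc6 and Irf9. Among the members, 27.5% were called lower and 55% passed the test lower, against 4.8% and 9.55% of all 35556 probe sets. Called higher were 0% of the members and 1.09% of all probe sets, and 5% and 10.3% passed higher. Over the 19938 named genes with 1 probe set each, as the members have, 5.37% were called lower and 11.8% passed lower. Called higher were 0.752% of these genes, and 11.9% passed higher. The list was chosen with earlier results of these data known, so its shares are a description only. The median difference of the members was -0.42 (log2), with a range from -1.22 to 0.40, and 31 of the 40 lay below 0. Over all probe sets the median was 0.02 and 45.5% lay below 0. In 12 members every Ogg1-/- liver was under the whole WT range, and in Bst2 every one was over it. In these directions 6.04% and 6.08% of all probe sets separated, and 7.99% and 7.38% of the named genes. In pieces of whole liver, fewer cells of a type and less RNA per cell cannot be told apart. Without replicate 1 of the Ogg1-/- HFD group, 7 members were called and 16 passed the test lower. Without replicate 3 of the WT HFD group, 16 were called and 24 passed it lower.

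**Figure D1:**
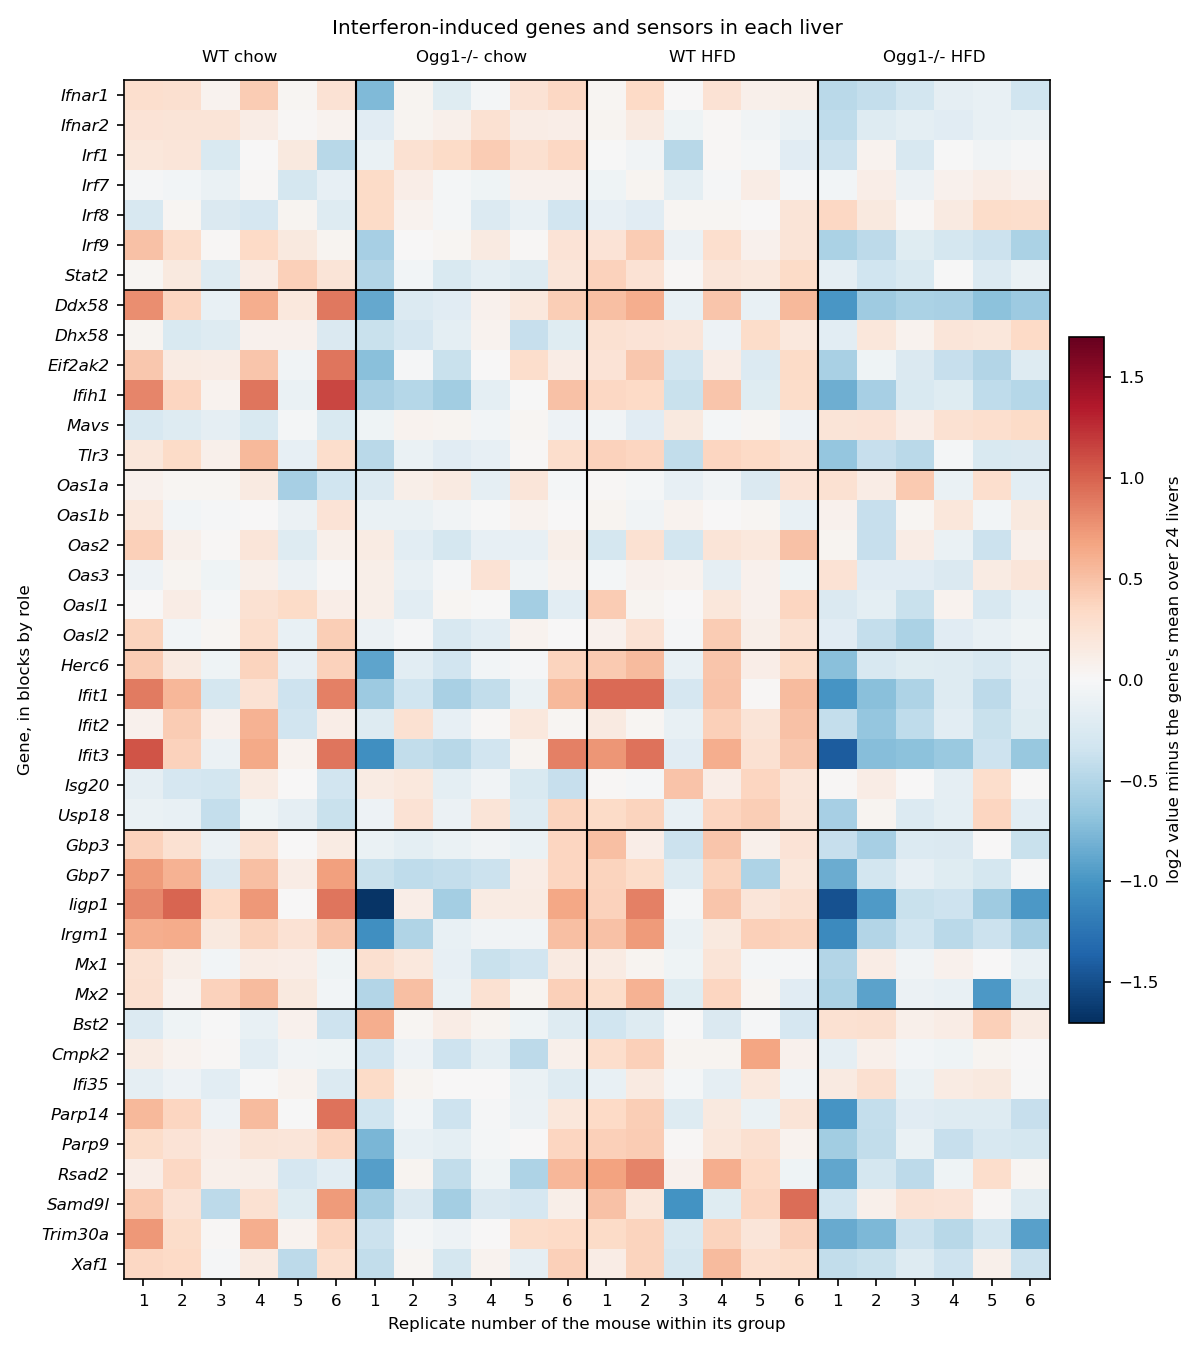
Each row is 1 of the 40 measured members, in blocks by role, and each column 1 liver of the 4 groups of 6; colour gives the log2 value minus the gene's mean over the 24 livers. The columns of the Ogg1-/- HFD group are mostly blue from Ddx58 to Trim30a, with Mavs and Bst2 red, and replicate 1 of each Ogg1-/- group is the darkest blue of its group in many rows.

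The heat map of the 40 members shows the separation on the HFD and the uneven chow groups in the same picture. Replicate 1 was the lowest liver of the Ogg1-/- HFD group in 23 of the 40 members, and replicate 1 of the Ogg1-/- chow group in 22. Replicate 3 was the lowest of the WT HFD group in 27, and replicate 6 the highest of the Ogg1-/- chow group in 21.

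Of the receptors and transcription factors, 3 of 7 were lower in Ogg1-/- livers on the HFD and the other 4 did not pass. Ifnar1, the receptor chain shared by all type I interferons, ran from 8.56 to 8.89 (median 8.64) in WT livers on the HFD and from 8.10 to 8.43 (median 8.23) in Ogg1-/- livers. The groups did not overlap, and the difference was -0.43 ± 0.13 (SE, n = 6 per group, limma adjusted p = 0.0204), under the fold of 1.5. Irf9, the DNA-binding part of the complex, ran from 8.0 to 8.53 (median 8.33) in WT and from 7.56 to 7.89 (median 7.70) in Ogg1-/- livers. It fell by 0.59 on the log2 scale (SE 0.11, adjusted p = 0.00244), again with no overlap. Stat2, its partner, ran from 8.46 to 8.83 (median 8.67) in WT and from 8.10 to 8.43 (median 8.25) in Ogg1-/- livers, without overlap, at -0.41 ± 0.10 (adjusted p = 0.00798). The second receptor chain did not pass the test. Ifnar2, the member with the highest mean signal, ran from 11.34 to 11.60 in WT and from 11.02 to 11.34 in Ogg1-/- livers on the HFD, at -0.20 ± 0.07 (adjusted p = 0.0514). The induced or lineage factors Irf1, Irf7 and Irf8 had differences of 0.02, 0.06 and 0.22, and the lowest adjusted p among them was 0.111 for Irf8.

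Among the sensors, RIG-I had the largest difference, and the adaptor below it went the other way. Ddx58, which encodes RIG-I, ran from 7.73 to 8.47 (median 8.34) in WT and from 6.87 to 7.32 (median 7.24) in Ogg1-/- livers on the HFD. The groups were fully apart, and Ddx58 fell by 0.98 on the log2 scale, a fold of 1.98 (SE 0.19, adjusted p = 0.00247). Ifih1, which encodes MDA5, the sensor of long double-stranded RNA, ran from 7.08 to 7.93 (median 7.79) in WT and from 6.63 to 7.26 (median 7.0) in Ogg1-/- livers. Here 4 of 6 Ogg1-/- livers lay below every WT liver, and the difference of -0.61 ± 0.21 was close to the threshold (adjusted p = 0.0439). Leaving out 1 liver at a time took the adjusted p of Ifih1 to 0.05 or more in 10 of 24 fits, up to 0.109. Tlr3, the endosomal receptor for double-stranded RNA, ran from 5.95 to 6.77 (median 6.72) in WT and from 5.72 to 6.34 (median 6.05) in Ogg1-/- livers, at -0.56 ± 0.14 (adjusted p = 0.00889). Replicate 3 was the WT liver that overlapped them. Mavs ran from 10.57 to 10.93 (median 10.72) in WT and from 10.88 to 11.09 (median 11.01) in Ogg1-/- livers, a rise of 0.27 ± 0.06 (adjusted p = 0.00505), with 5 of 6 above every WT liver. Eif2ak2, the kinase PKR, had a difference of -0.43 ± 0.17 (adjusted p = 0.0796), and Dhx58, which encodes LGP2, one of -0.05.

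**Figure D2:**
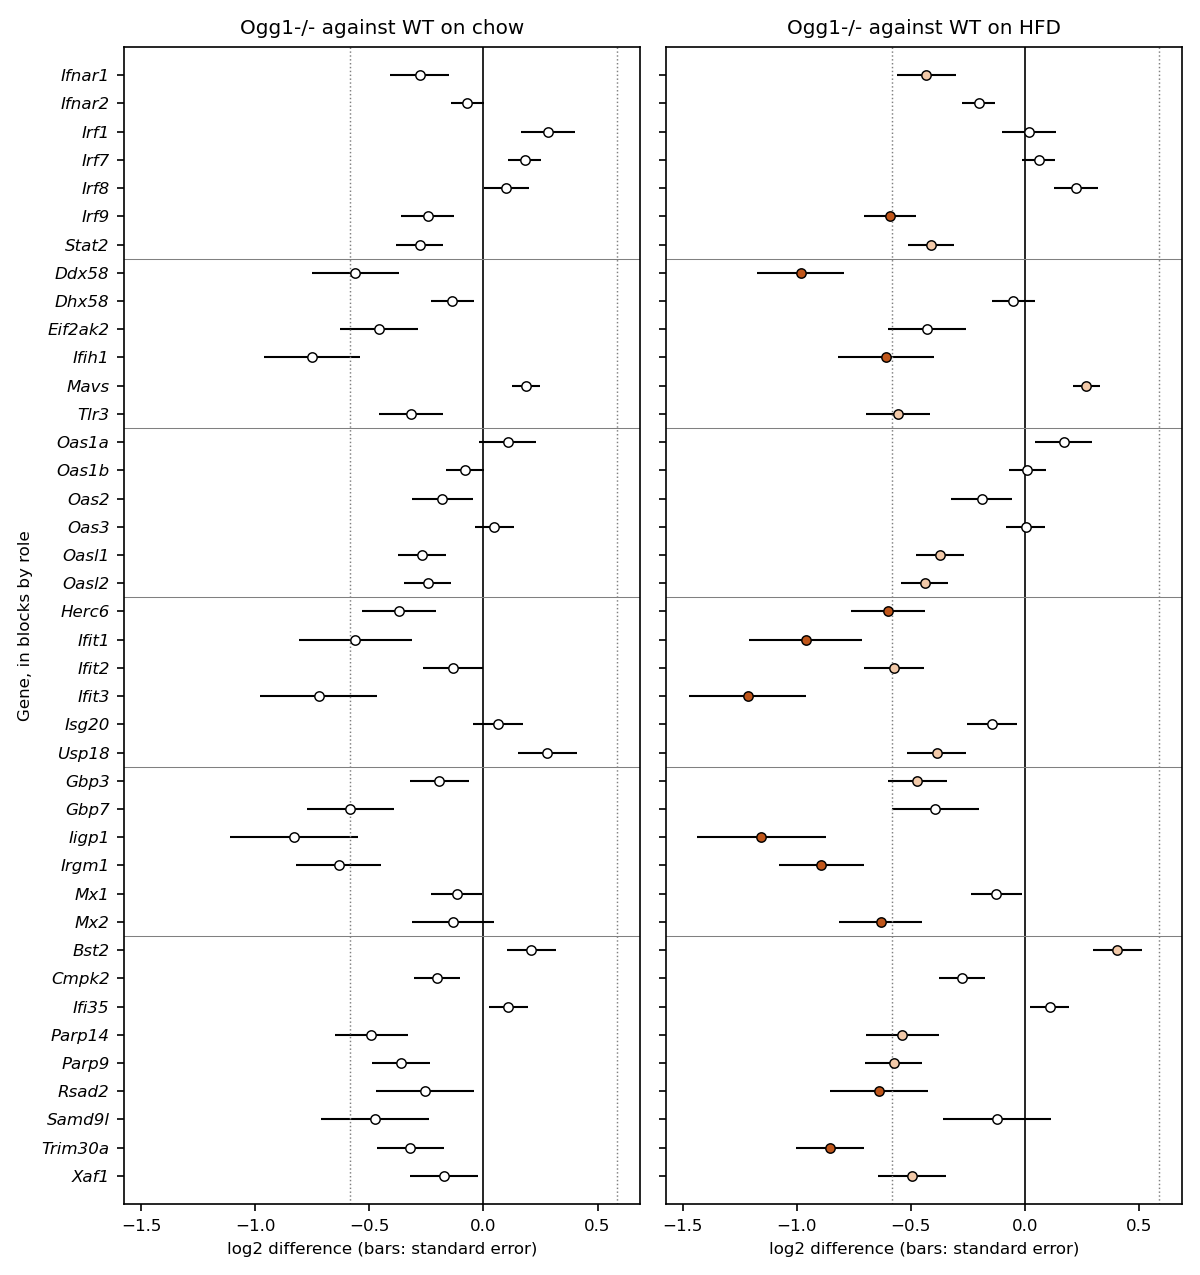
Points give the log2 difference of each measured member, Ogg1-/- minus WT, on chow (left) and on the HFD (right), with bars of 1 standard error; dotted lines mark a fold of 1.5, dark points were called, pale points passed the test only and open points did not pass. No point is filled on chow, and 24 are filled on the HFD, 22 of them to the left of 0.

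The IFIT and ISG15 group held the largest difference of all members. Ifit3, one of the tetratricopeptide repeat proteins that bind foreign RNA, ran from 6.86 to 7.98 (median 7.59) in WT and from 5.64 to 6.70 (median 6.38) in Ogg1-/- livers on the HFD. The groups did not overlap, and Ifit3 fell by 1.22 on the log2 scale, a fold of 2.32 (SE 0.26, adjusted p = 0.0036). Ifit1, which holds RNA that lacks the host's cap methylation, ran from 5.46 to 6.72 (median 6.26) in WT and from 4.75 to 5.57 (median 5.26) in Ogg1-/- livers, at -0.96 ± 0.25 (adjusted p = 0.00932). In Ifit1, 4 of 6 Ogg1-/- livers lay below every WT liver. Ifit2 fell by 0.57 without overlap (SE 0.13, adjusted p = 0.00525), just under the fold of 1.5. Herc6, the mouse ligase for ISG15, ran from 7.01 to 7.68 (median 7.53) in WT and from 6.42 to 6.97 (median 6.90) in Ogg1-/- livers, at -0.60 ± 0.16 (adjusted p = 0.0121). Usp18, which removes ISG15 and damps receptor signalling, fell by 0.39 (SE 0.13, adjusted p = 0.0374). Usp18 lies within 10 Mb of Ogg1, so that for this gene the loss of Ogg1 and DNA carried along with the targeted locus cannot be told apart. Isg20, an RNA exonuclease, had a difference of -0.15 ± 0.11 (adjusted p = 0.402). All 6 measured genes of the group lay below 0 and 5 passed.

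The GTPases were also lower as far as they passed, 4 of 6, with 3 called. Iigp1, an immunity-related GTPase that attacks the vacuoles of parasites, ran from 9.64 to 10.53 (median 10.00) in WT and from 8.20 to 9.33 (median 8.89) in Ogg1-/- livers on the HFD. No Ogg1-/- liver reached the WT range, and Iigp1 fell by 1.15, a fold of 2.23 (SE 0.28, adjusted p = 0.00727). Irgm1, the regulator of that family, ran from 8.24 to 9.07 (median 8.75) in WT and from 7.27 to 8.01 (median 7.87) in Ogg1-/- livers, again without overlap, at -0.89 ± 0.19 (adjusted p = 0.00338). Mx2, a dynamin-like GTPase, ran from 4.74 to 5.52 (median 5.11) in WT and from 3.97 to 4.84 (median 4.54) in Ogg1-/- livers, at -0.63 ± 0.18 (adjusted p = 0.0169). Mx2 is among the dimmest members, and 2 of its Ogg1-/- livers overlapped the WT range. Gbp3, a guanylate-binding protein, fell by 0.47 (SE 0.13, adjusted p = 0.013), while Gbp7 had a difference of -0.39 ± 0.19 (adjusted p = 0.159). Mx1, the member with the lowest mean signal, ran from 4.46 to 4.76 in WT and from 4.04 to 4.67 in Ogg1-/- livers, at -0.13 ± 0.11 (adjusted p = 0.493). C57BL/6 mice are known to carry a defective Mx1 allele.

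The other effectors included the gene with the lowest adjusted p and the one member that separated upwards. Trim30a, a ubiquitin ligase that restrains inflammatory signalling, ran from 6.96 to 7.61 (median 7.57) in WT and from 6.30 to 6.91 (median 6.60) in Ogg1-/- livers on the HFD. It fell by 0.85 (SE 0.15, adjusted p = 0.00143), without overlap. Rsad2, which encodes viperin, ran from 7.56 to 8.47 (median 8.11) in WT and from 6.74 to 7.93 (median 7.44) in Ogg1-/- livers, at -0.64 ± 0.21 (adjusted p = 0.0378), with 4 of 6 below every WT liver. Leaving out 1 liver ended the Rsad2 call in 6 of 24 fits. Bst2, which tethers budding virus to the cell, ran from 8.79 to 9.12 (median 8.89) in WT and from 9.21 to 9.53 (median 9.33) in Ogg1-/- livers, a rise of 0.40 ± 0.11 (adjusted p = 0.0112). Every Ogg1-/- liver lay above every WT liver for Bst2. The poly-ADP-ribosyltransferases Parp9 and Parp14 fell by 0.58 and 0.54 (SE 0.13 and 0.16, adjusted p = 0.00425 and 0.022), and the pro-apoptotic Xaf1 by 0.50 (SE 0.15, adjusted p = 0.0226). Cmpk2, a nucleotide kinase that neighbours Rsad2, had a difference of -0.28 ± 0.10 (adjusted p = 0.0551), Samd9l one of -0.12 and Ifi35 one of 0.11.

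The OAS family, whose enzymes make the second messenger that activates RNase L, had the smallest median difference of the 6 role groups, -0.09. Its 2 members that passed were Oasl1 and Oasl2, which are OAS-like proteins, at -0.37 ± 0.10 and -0.44 ± 0.10 (adjusted p = 0.0146 and 0.00595). Oasl2 ran from 6.89 to 7.35 in WT and from 6.38 to 6.84 in Ogg1-/- livers on the HFD, with no overlap. Oas1a, Oas1b, Oas2 and Oas3 had differences of 0.17, 0.01, -0.19 and 0.00, and the lowest adjusted p among them was 0.367. C57BL/6 mice are known to carry a truncated Oas1b. The family held 0 called members.

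**Figure D3:**
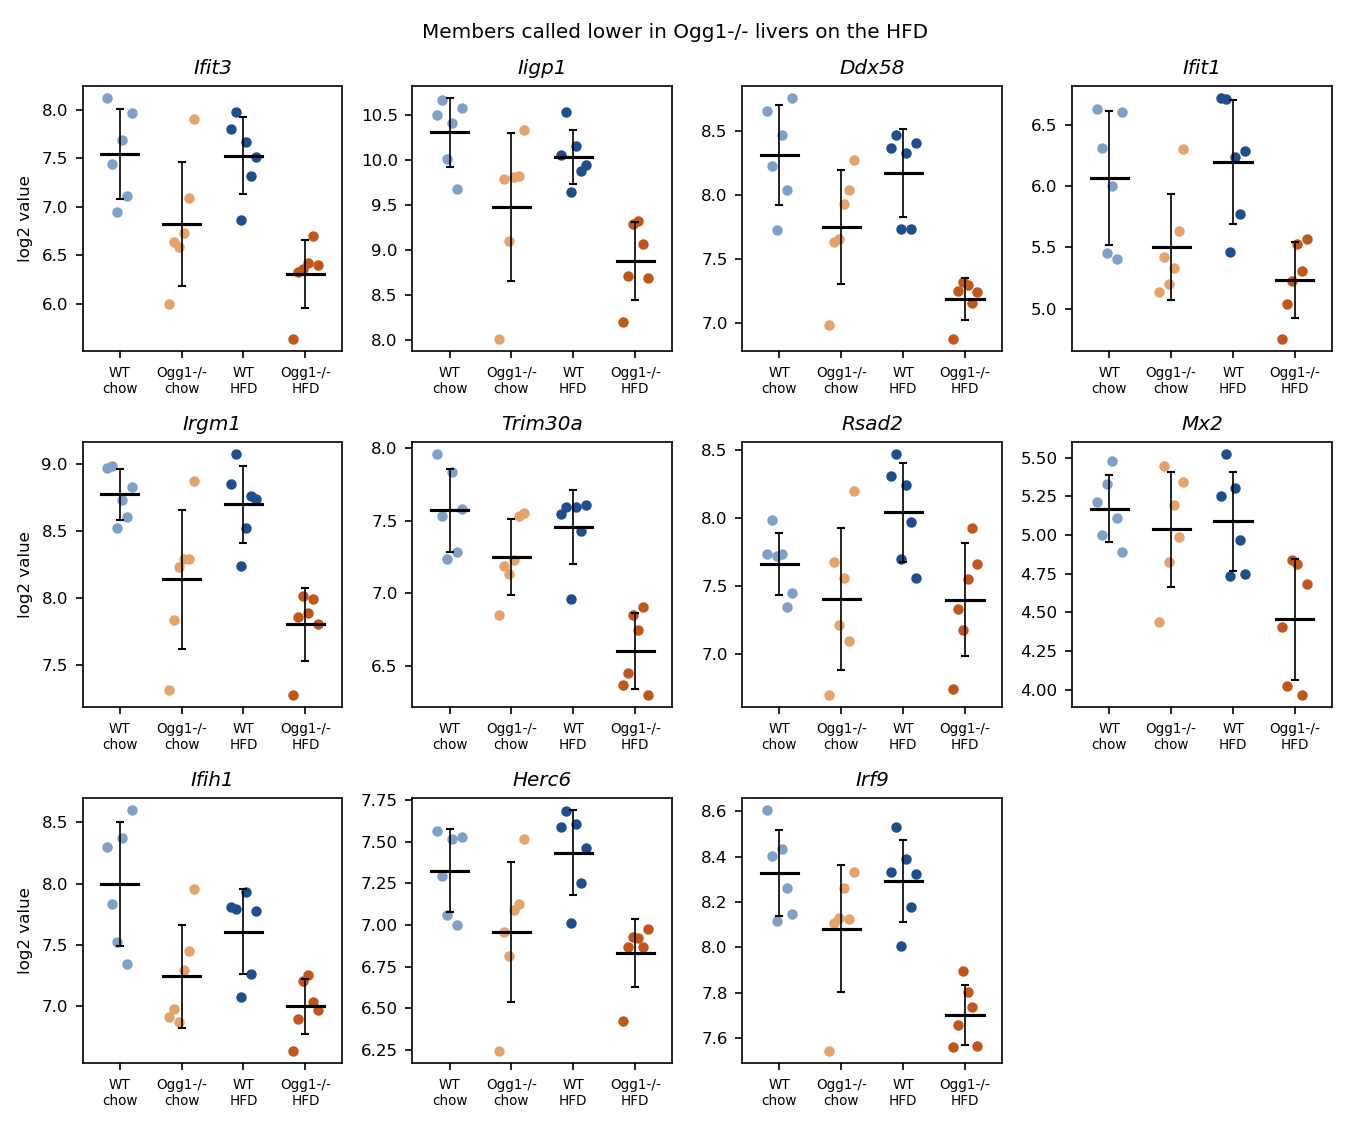
Each panel shows 1 of the 11 members called lower on the HFD, with 1 point per liver (log2 value, axis not from 0), a bar at the mean and an error bar of 1 SD for each group of 6. In Ifit3, Iigp1, Ddx58, Irgm1, Trim30a, Herc6 and Irf9 every Ogg1-/- HFD point lies below every WT HFD point, and on chow between 2 (Irf9, Iigp1, Mx2) and 5 (Irgm1) of the 6 Ogg1-/- points lie below every WT point.

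The letters of the promoters were set beside these values as a description. Of the 9 called members with a window, 7 hold the response element core, and Herc6 and Irf9 do not. Among the 14 members with a window that did not pass lower, 6 hold it, including Oas1a, Oas3 and Bst2, each with 2 overlapping matches. The gamma-activated sequence TTCNNNGAA reads the same on both strands and was found in 9.55% of all genes. It was present in 0 of the 9 called members, in 2 of the 17 that passed lower (Ifit2 and Ifnar1) and in 9 of the 14 that did not. The share among those that passed lower (11.8%) is near that of all genes. The 9 called members are too few to set their share apart from it. These groups were formed by the outcome on the HFD, and no difference between them was tested. The 9 that did not pass lower and hold it include Irf1, Irf8, Isg20, Gbp7 and Bst2, where it overlaps the response element core. The window covers 300 bases only, and no windows were at hand for Dhx58, Iigp1, Mx1, Mx2, Oas1b, Oas2, Parp14, Parp9 and Usp18.

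**Figure D4:**
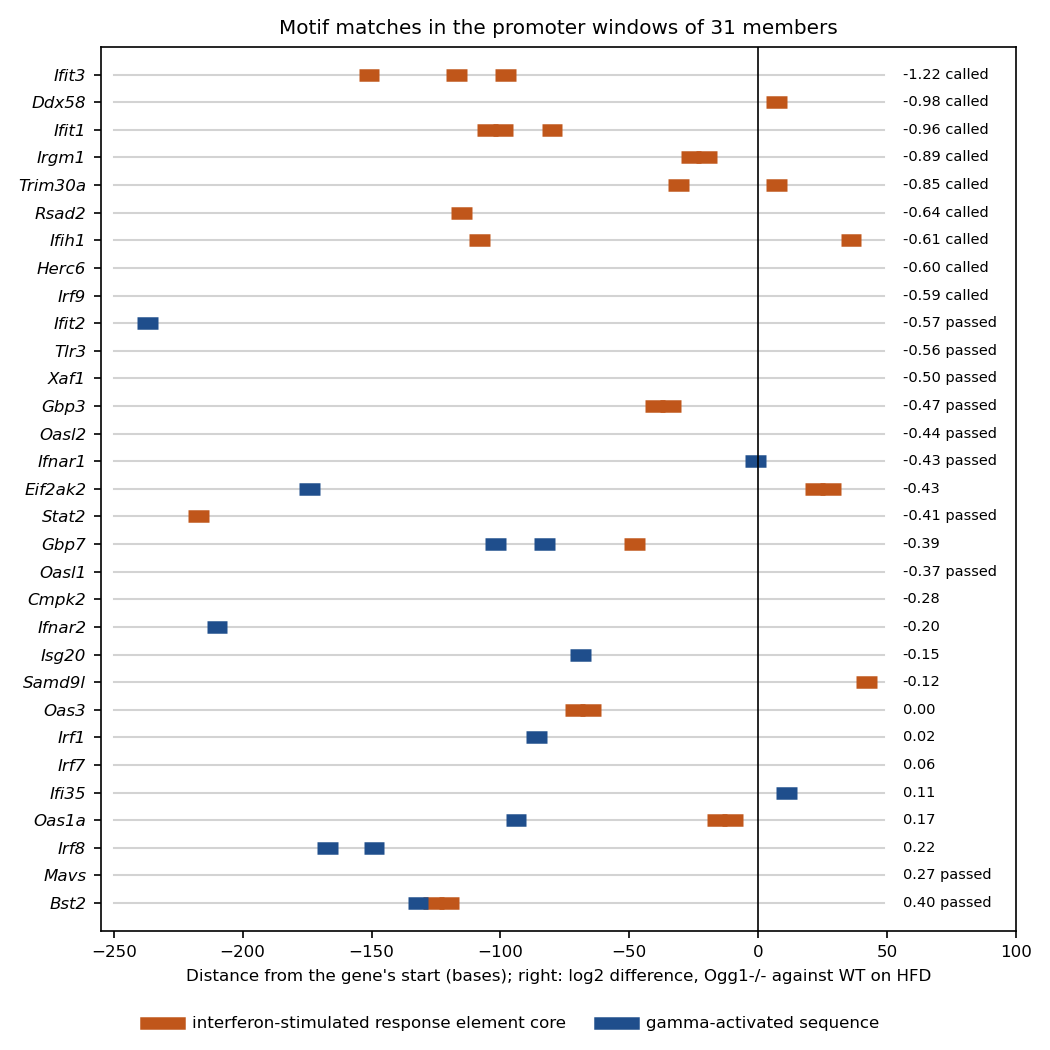
Grey lines are the promoter windows of 31 members, from 250 bases before to 50 after the start (0 on the axis), ordered by the log2 difference on the HFD printed at the right; orange bars mark the response element core and blue bars the gamma-activated sequence, with the matches of all windows of a gene drawn on 1 line. Orange bars occur at the top and at the bottom of the order. The 9 called members carry no blue bar, where 9.55% of all genes hold this sequence.

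On chow, 0 of the 40 members passed the test and 0 were called, where 0.236% of all probe sets passed it lower, 0.242% passed it higher and 0.143% were called lower. The lowest adjusted p was 0.109, for Ifih1. The limma test gave an unadjusted p under 0.05 for 22 members, 18 of them lower, and for 18% of all probe sets. Of the 40 differences, 30 lay below 0, with a median of -0.22, against 45.4% of all probe sets and a median of 0.02. All 11 members called on the HFD had chow differences below 0, from -0.83 to -0.13. For Iigp1 the WT livers on chow ran from 9.68 to 10.66 (median 10.45) and the Ogg1-/- livers from 8.01 to 10.33 (median 9.80), at -0.83 ± 0.28 (adjusted p = 0.158). Ifit3 ran from 6.95 to 8.12 (median 7.56) in WT and from 6.0 to 7.90 (median 6.68) in Ogg1-/- livers, at -0.72 ± 0.26 (adjusted p = 0.17). Ifih1 ran from 7.34 to 8.60 (median 8.07) in WT and from 6.87 to 7.96 (median 7.14) in Ogg1-/- livers, at -0.75 ± 0.21. The groups overlapped in all 40 members, with replicate 6 of the Ogg1-/- chow group often high and replicate 1 often low, while 0.461% and 0.599% of all probe sets separated downwards and upwards. Without replicate 6, 4 members were called and 6 passed lower, and without replicate 1, 0 were called. Whether the genotype difference depended on the diet was tested as the interaction, and 0 of the 40 members passed it. The lowest adjusted p was 0.49, for Usp18 at -0.67 ± 0.18, with an unadjusted p under 0.05 for 4 members and 6.88% of all probe sets. Over all probe sets, 0.00281% passed the interaction. A difference between the diets in the effect of genotype was therefore not shown for any member.

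Between the diets in WT livers, 0 of the 40 members passed the test, where 0.394% of all probe sets passed the test lower, 0.532% passed it higher and 0.385% were called. The median difference was -0.01, the range -0.39 to 0.47, and an unadjusted limma p under 0.05 was reached by 5 members, none of them lower, and by 13.4% of all probe sets. The lowest adjusted p was 0.0886, for Usp18 at 0.47. From 1 to 2 members passed higher under quantile normalization, array weights, a fit of the 2 groups alone, the axis score as a covariate (described below) and without replicate 3 of the WT HFD group. In Ogg1-/- livers, 4 members were lower on the HFD than on chow and 2 were higher, while 4.94% of all probe sets passed lower, 4.58% passed higher and 2.45% were called lower. Among the members 10% passed lower and 2.5% were called lower. The share called lower and the share that passed higher were near those over all probe sets. Trim30a was the 1 called member. It ran from 6.85 to 7.55 (median 7.21) on chow and from 6.30 to 6.91 (median 6.60) on the HFD, and fell by 0.65 (SE 0.15, adjusted p = 0.00953). Mx2, Irf9 and Ifnar2 fell by 0.58, 0.38 and 0.28 (adjusted p = 0.0441, 0.0378 and 0.0187). Mavs rose by 0.25 without overlap, as 1.61% of all probe sets did upwards (SE 0.06, adjusted p = 0.0133), and Dhx58 by 0.36 (SE 0.10, adjusted p = 0.0208). Without replicate 1 of the Ogg1-/- chow group, 5 members were called in this comparison, 12 passed lower and 4 higher. With replicate 1 of the Ogg1-/- HFD group left out instead, 1 was called, 1 passed lower and 2 higher. The 2 diet comparisons and the 2 genotype comparisons share their groups in pairs, so that their values are not independent of each other.

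Other genes of the pathway were counted from lists of their own. Among 42 measured interferon-induced genes outside the 46, 15 were lower and 4 higher in Ogg1-/- livers on the HFD, and 6 were called, all lower, with a median of -0.24. Gbp11, Trim30d, Sp100, Dtx3l, Mlkl and Rnf213 were the 6, at -0.99, -0.96, -0.79, -0.76, -0.66 and -0.66. Of the 42, 35.7% were lower, 14.3% called lower and 9.52% higher, against 9.55%, 4.8% and 10.3% of all probe sets. The share that was higher is thus near that over all probe sets. Dtx3l, the ubiquitin ligase that partners PARP9, ran from 8.79 to 9.20 in WT and from 7.88 to 8.46 in Ogg1-/- livers (adjusted p = 0.0038). The 4 higher genes were Ifitm2, Ifitm3, Ube2l6 and Tapbp. Ifitm2, which blocks the entry of virus, ran from 11.55 to 12.04 in WT and from 12.28 to 12.43 in Ogg1-/- livers, at 0.54 ± 0.10 (adjusted p = 0.00195), and Ifitm3 was at 0.24 ± 0.07 (adjusted p = 0.0195). The groups did not overlap in 11 of the 42, Dtx3l, Ifitm2 and Ifitm3 among them. Over all probe sets, 6.04% separated downwards and 6.08% upwards. Without replicate 1 of the Ogg1-/- HFD group, 10 of the 42 were lower, 4 higher and 4 called, and without replicate 3 of the WT HFD group 9 were called.

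Signalling genes outside the 46 moved both ways. Of 16 measured genes of interferon receptor signalling, 4 were lower on the HFD in Ogg1-/- livers (Jak1, Jak2, Pias1 and Ptpn11) and 4 higher (Irf2, Irf3, Tyk2 and Ifngr1). That is 25% each way, where 9.55% of all probe sets were lower and 10.3% higher. Jak1, the kinase bound to IFNAR2, ran from 9.01 to 9.83 in WT and from 8.28 to 8.78 in Ogg1-/- livers, at -0.94 ± 0.21 (adjusted p = 0.00425). Tyk2, the kinase bound to IFNAR1, was at 0.21 ± 0.07 (adjusted p = 0.0285). Of 18 genes of sensor signalling, 7 were lower (Tank, Ddx3x, Azi2, Traf6, Zc3hav1, Tbk1 and Trim25) and 3 higher (Ticam1, Tmem173 and Rnf135), or 38.9% and 16.7%. Tank, a scaffold of the kinase TBK1, ran from 7.93 to 8.54 in WT and from 6.46 to 7.39 in Ogg1-/- livers, at -1.16 ± 0.22 (adjusted p = 0.0022). Tmem173, which encodes STING, the adaptor of the DNA sensor cGAS, was at 0.34 ± 0.11 (adjusted p = 0.0344). Of 10 measured interferon genes, Ifnb1 and Ifng among them, 0 passed the test in any of the 4 comparisons between groups, with differences on the HFD from -0.24 to 0.17. Measured means here that a probe set was present, with no filter on low values. Whether these transcripts were detectable was not tested. When replicate 1 of the Ogg1-/- HFD group was left out, 2 genes of receptor signalling were lower and 1 higher, and 7 of sensor signalling were lower and 0 higher. On chow, 0 genes passed in each of these lists.

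Some marker genes of other liver cells moved with the members on the HFD. Of 8 endothelial markers, 6 were lower in Ogg1-/- livers (75%), where 9.55% of all probe sets passed lower and 10.3% higher. The mean level of the 8 ran from 8.43 to 8.84 in WT and from 8.14 to 8.34 in Ogg1-/- livers, without overlap. Of 7 stellate cell markers 3 were lower (42.9%), Lrat, Dcn and Rgs5. The median of the 7 was -0.25, with a range from -0.96 to 0.17 and 4 below 0. Their mean level overlapped, from 8.24 to 8.66 in WT and from 8.03 to 8.40 in Ogg1-/- livers. Of 12 Kupffer cell and macrophage markers, 3 were higher (25%) and 2 lower (16.7%), the latter being Vsig4 at -0.85 and Clec4f at -0.22. Most of the 12 leaned upwards, with a median of 0.18, a range from -0.85 to 0.52 and 4 below 0. The mean level of the 12 overlapped, from 8.82 to 9.15 in WT and from 8.91 to 9.09 in Ogg1-/- livers. Without replicate 1 of the Ogg1-/- HFD group, 0 of the 12 were higher and 1 was lower, 5 endothelial and 2 stellate cell markers were lower, and 0 passed in the T and natural killer and B lists. Among the T and natural killer, B, dendritic and neutrophil lists, 1 of 10, 1 of 4, 0 of 6 and 0 of 4 passed, with Bst2 left out of the dendritic list as a member, and 0 of 8 hepatocyte markers did. The part of the endothelial and stellate marker differences in the members' values was not tested.

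The members also moved with the axis along which livers of the same chow group differed most, which held 40.2% of that variation over all probe sets. A liver's score on it ran from -46.1 to -6.51 in WT and from -42.1 to 80.9 in Ogg1-/- livers on chow, and from -20.7 to 10.4 in WT and from 18.5 to 54.8 in Ogg1-/- livers on the HFD. The mean deviation of the 40 members from their means over all livers ran from -0.05 to 0.29 and from -0.34 to 0.20 on chow, and from -0.13 to 0.29 and from -0.43 to -0.13 on the HFD, in the same order of groups. The livers that lay highest on the axis, replicate 1 of both Ogg1-/- groups, had the lowest member means, and within the Ogg1-/- chow group replicate 6 had the lowest score and the highest mean. The axis was built from the chow livers over all probe sets, members included. Its sign was set so that replicate 1 of the Ogg1-/- chow group lay above 0. The score of every liver, on chow or the HFD, was also taken over all probe sets, members included. The places of the livers on the axis are therefore not independent of their member values. With the score as a covariate, 0 members were called on the HFD and 4 passed lower, Trim30a, Ddx58, Oasl1 and Irf9, at -0.55, -0.51, -0.46 and -0.34 (adjusted p = 0.0223, 0.0328, 0.0373 and 0.0432). Mavs, at 0.23 (adjusted p = 0.0628), and Bst2, at 0.15 (adjusted p = 0.276), no longer passed. Below 0 lay 31 of the 40 members, and the median was -0.22. In the same fit 1.38% of all probe sets passed lower and 0.217% were called lower. Every Ogg1-/- liver on the HFD scored above every WT liver on the HFD, so that genotype and score cannot be fully told apart there.

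**Figure D5:**
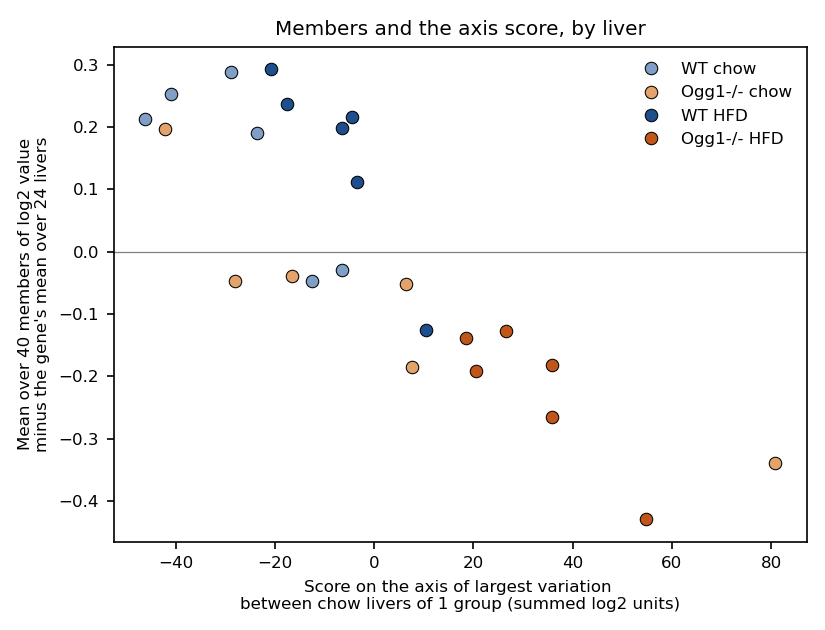
Each point is 1 of 24 livers, with its score on the axis of largest variation between chow livers of 1 group (horizontal) and the mean over the 40 members of log2 value minus the gene's mean (vertical). The 6 Ogg1-/- HFD livers lie at scores from 18.5 to 54.8 and at or below -0.13, and the liver at a score of 80.9 is replicate 1 of the Ogg1-/- chow group.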

How the data were processed

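Liver RNA of 24 mice was measured on 24 arrays, 1 per liver. The deposited table holds a log2 signal for each probe set, and the submitters' processing notes name RMA (robust multiarray averaging), with no build given in the sources used here. All 35556 probe sets were fitted in 1 limma model (3.58.1, R 4.3.3) of the 4 groups, with no filter on low values. A probe set passed at a Benjamini-Hochberg p under 0.05 over all probe sets, and was called at a fold of at least 1.5 as well. Symbols came from the platform table, where 21789 probe sets carry 1 symbol, 1621 carry several and 12146 are not named here. The members and gene lists were chosen with earlier results of these data known, so no p is given for a list. Values are given for members called in any comparison, for the receptors, sensors and their main partners, and for the brightest and dimmest member; others with values were chosen after these were seen. Promoter windows came from RefSeq (GRCm38.p6), searched on both strands. Array correlations ran from 0.952 to 0.993, with 0 identical pairs. Numbers that replicates share across groups were not treated as pairs. Residual correlations over 36 same-number pairs ran from -0.27 to 0.43, with a median of -0.03. Livers with different numbers were not compared, so these values cannot decide whether the numbers pair the livers. Counts of the lists outside the members without the livers that stood apart were added after seeing the data. The number of arrays limits the precision.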

Additional observations from a re-analysis of the deposited data

Results flagged for a closer look

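Of 160 groups of 6 values (40 members in 4 groups), 13 held a liver far from the other 5, and chance flags about 1 group in 20. Replicate 1 of the Ogg1-/- HFD group was far below the rest of its group in 7 members. Its log2 values were 6.87 for Ddx58, 5.74 for Gbp7, 6.42 for Herc6, 5.64 for Ifit3, 11.02 for Ifnar2, 7.27 for Irgm1 and 5.89 for Parp14. Replicate 1 of the Ogg1-/- chow group was far below in Irf1 (8.06) and Irf9 (7.54), and replicate 6 of that group far above in Gbp3 (6.67). In the WT HFD group, replicate 3 was far below in Tlr3 (5.95) and Trim30a (6.96), and replicate 4 in Dhx58 (7.17). Replicate 1 of the Ogg1-/- chow group and replicate 1 of the Ogg1-/- HFD group also had the highest axis scores of their groups, 80.9 and 54.8, as had replicate 3 of the WT HFD group, 10.4. The first of these livers was among those from which the axis was built.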

How the results depend on the processing

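The 11 members called between the genotypes on the HFD were 9 under median centring, 8 under quantile normalization, 9 without dim probe sets, 9 by the methods' t-test, and 11 under array weights, a trended robust prior and the 2 groups alone. Without a fold threshold there were 24, at a lower fold threshold 23, at a fold of 2 there were 2, and with the axis score as a covariate 0. Leaving out 1 liver gave 7 to 16, with 7 without WT HFD replicate 1, 2 or 4 or Ogg1-/- HFD replicate 1 or 2. On chow the count was 0 under each of these settings and 0 to 4 when 1 liver was left out. For HFD against chow in Ogg1-/- livers the 1 called member became 4 with array weights or the lower fold threshold, 6 without a fold threshold, and 0 at a fold of 2, by the t-test or with the covariate. Leaving out 1 liver there gave 1 to 5, with 5 without Ogg1-/- chow replicate 1 and 2 without Ogg1-/- chow replicate 3 or Ogg1-/- HFD replicate 3 or 4. The diet comparison in WT livers and the interaction stayed at 0, also when 1 liver was left out. With the replicate number as a block, the counts were 11 on the HFD, 0 on chow and 1 between the diets in Ogg1-/- livers, and it changed no call. Whether the numbers pair the livers was not established.

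Of the called members, Irf9 and Ddx58 passed the test in each setting, as did Trim30a between the genotypes. The folds of Irf9, Herc6 and Ifih1 between the genotypes on the HFD were 1.51, 1.52 and 1.53, just over the threshold of 1.5. With the covariate the adjusted p was 0.669 for Ifih1, 0.295 for Herc6, 0.247 for Ifit1, 0.0726 for Ifit3, 0.124 for Iigp1, 0.0513 for Irgm1, 0.309 for Mx2 and 0.548 for Rsad2. By the methods' t-test Mx2, Rsad2 and, between the diets, Trim30a missed the threshold (adjusted p = 0.0513, 0.0675 and 0.0641), and under quantile normalization Ifih1 did (0.0519). No value changed sign. The cause of these losses was not tested. The median over all probe sets was at most 0.04 under each scaling.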

Other observations

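Genes of antigen presentation by MHC class I, many of them also interferon-induced, were counted from a list of 16, of which 13 were measured. In Ogg1-/- against WT livers on the HFD, 2 were higher (15.4%) and 1 lower (7.69%), where 10.3% and 9.55% of all probe sets were, so that these shares are near those over all probe sets. Without replicate 1 of the Ogg1-/- chow group, which enters the shared spread, 3 were higher and 3 lower. Psmb10, a catalytic subunit of the immunoproteasome, ran from 7.88 to 8.16 in WT and from 8.26 to 8.72 in Ogg1-/- livers, without overlap, and rose by 0.47 (SE 0.13, adjusted p = 0.0126). Tapbp, which encodes tapasin and is on the list of other interferon-induced genes too, ran from 9.93 to 10.15 and from 10.28 to 10.53, and rose by 0.41 (SE 0.11, adjusted p = 0.00981). Erap1, the peptidase that trims peptides for class I, ran from 7.43 to 8.17 and from 6.85 to 7.69, and fell by 0.71 (SE 0.19, adjusted p = 0.0111). The median of the 13 was 0.15. Between the diets in Ogg1-/- livers, Tap1 and Psmb9 rose by 0.56 and 0.50 (adjusted p = 0.00506 and 0.0227) and Erap1 fell by 0.62 (adjusted p = 0.0399), while 0 of the 13 passed on chow or between the diets in WT livers. Ube2l6, the conjugating enzyme of ISG15, rose on the HFD in both genotypes, by 0.41 in WT and 0.59 in Ogg1-/- livers (adjusted p = 0.0136 and 0.000159).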
